A study of Ipomoea batatas with 12 samples.

Results

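A group of 355 genes in sweet potato leaves stood higher after IbPep1 than after water, while their mean after the peptide IbHypSysIV stayed near water. They are 1.59% of the 22289 genes whose water mean reached 0.5 CPM (read counts scaled to a library total of 1000000) and 1.10% of all 32301 gene identifiers in the table. They were chosen by measured levels in all 12 libraries, on the scale log2(CPM + 0.5). The mean over the IbPep1 libraries had to lie at least 0.8 above the mean over the water libraries. The mean over the IbHypSysIV libraries had to lie within 0.5 of water either way, and each IbPep1 library had to lie above each water and each IbHypSysIV library. What these conditions used is described here without a test.

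The plants were Ipomoea batatas Lam., cultivar Tainong 57, grown from scions, and the labels give this 1 genotype for all groups. The 3rd leaf was exposed for 1 h to water, IbHypSysIV or IbPep1, and 4 libraries of each were sequenced. The source name gave the group of each library; the separate treatment field of IbPep1 replicates 2, 3 and 4 reads IbPep2, IbPep3 and IbPep4, so that a slip in that field and a different peptide cannot be told apart. No label says whether replicates came from different plants.

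IbHypSysIV carries the name of the hydroxyproline-rich systemins, short glycopeptides known from tobacco and tomato as inducers of defence. IbPep1 carries the name of the plant elicitor peptides, which in Arabidopsis are cut from precursor proteins after wounding or infection and bind leucine-rich repeat receptor kinases at the cell surface. Such binding is known there for a rapid entry of calcium, a burst of reactive oxygen, a MAP kinase cascade and changes in jasmonate and ethylene signalling. Leaves respond to such peptides as to damage of their own cells. The genes described here cannot be ordered by such roles, because the table gives identifiers only: 0 of the 355 matched the gene table of the sweet potato assembly IBA_r1.0, and 0 of 20 lists of defence, photosynthesis and cell type genes could be used. For the same reason the leaf origin of the libraries was not checked against markers, no sequence is shown, and only 4 identifiers are printed. Near-identical copies of a gene could share reads, and such genes could not be marked.

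Total counts were between 16607188 and 25073251 a library, with IbHypSysIV replicate 4 the smallest, and 3 counts amount to 0.120 to 0.181 CPM. Of the 355 genes, 38 had fewer than 10 counts in at least 1 library and 8 had 3 or fewer; the lowest count was 2. Such limits cover counting error only. Libraries of the same group differed beyond sampling noise (chi-square over genes at least 13.5 per degree of freedom), so each was counted as 1 sample. In bulk leaf RNA, a change in the number of cells of a type and a change in RNA per cell cannot be told apart. For these genes, 3 libraries without IbPep1 stood highest, namely water replicate 3 and IbHypSysIV replicates 1 and 4, as the values by library show. IbHypSysIV replicate 2 stood lowest, so the IbHypSysIV group was spread out and had no single outlying pair. Over all genes, water replicate 3 stood apart from its group. Its correlation across the 22289 genes, on log2(CPM + 2), was 0.948 to 0.960 with the other water libraries. With the IbPep1 libraries it was 0.965 to 0.969, and the other water libraries correlated at 0.986 to 0.991 among themselves. The water mean that chose the genes thus includes a library that was nearer to IbPep1 than to its own group.

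The conditions narrowed the table in steps. Of the 22289 genes with enough reads in water, 1311 had an IbPep1 mean at least 0.8 above water, and in 886 of these the IbHypSysIV mean was within 0.5 of water. In 364 of the 1311 the IbHypSysIV mean was more than 0.5 above water and in 61 more than 0.5 below. Of the 886, 483 had each IbPep1 library above each water library, and 355 had each of them above the IbHypSysIV libraries too. Of the 531 that failed for overlap, 351 had water replicate 3 at or above the lowest IbPep1 library. Had water replicate 3 and IbHypSysIV replicates 1 and 4 not counted towards overlap, 340 of the 531 would have passed. Over all 22289 genes, 4.06% had every IbPep1 library above the other 8, and the rule required this of each of the 355.

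The limits cut through a continuous range. The genes just inside the limit of 0.8 had differences of 0.801, 0.803 and 0.804 between IbPep1 and water. The nearest ones outside, with the other conditions met, had 0.79999, 0.798 and 0.796. A further 451 genes met all other conditions with a smaller rise. At the upper limit for IbHypSysIV, the last gene inside stood 0.480 above water and the first outside 0.505, and at the lower limit they stood at -0.496 and -0.503.

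The genes were spread over a wide range of levels and their levels with IbPep1 were mostly about 2 times those in water. Mean levels in water ran from 0.515 to 263 CPM with a median of 7.04, against a median of 14.1 CPM over all 22289 genes. After IbHypSysIV the median of the means was 7.37 CPM and after IbPep1 17.9 CPM. The IbPep1 mean was 1.69 to 13.4 times the water mean in CPM, with a median ratio of 2.22, and it was at least 2 times water in 239 genes, at least 3 times in 64 and at least 4 times in 23. On the log2(CPM + 0.5) scale the rise had a median of 1.06, with an interquartile range of 0.91 to 1.36, beside a median of 0.0060 over all 22289 genes. The IbHypSysIV mean differed from water by a median of 0.09, beside -0.023 over all 22289 genes. It was above water in 221 of the 355, while over all genes the median lay below water.

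Low genes were chosen more often than high ones. Of the genes below 1 CPM in water 2.37% were chosen, of those from 1 to 10 CPM 1.98%, of those from 10 to 100 CPM 1.34% and of those at 100 CPM or more 0.769%, which are 41, 153, 146 and 15 genes. The median rise was 1.21, 1.11, 0.999 and 0.94 on the log2(CPM + 0.5) scale in the same order. The part of counting error at low levels in this order was not tested.

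**Figure D1:**
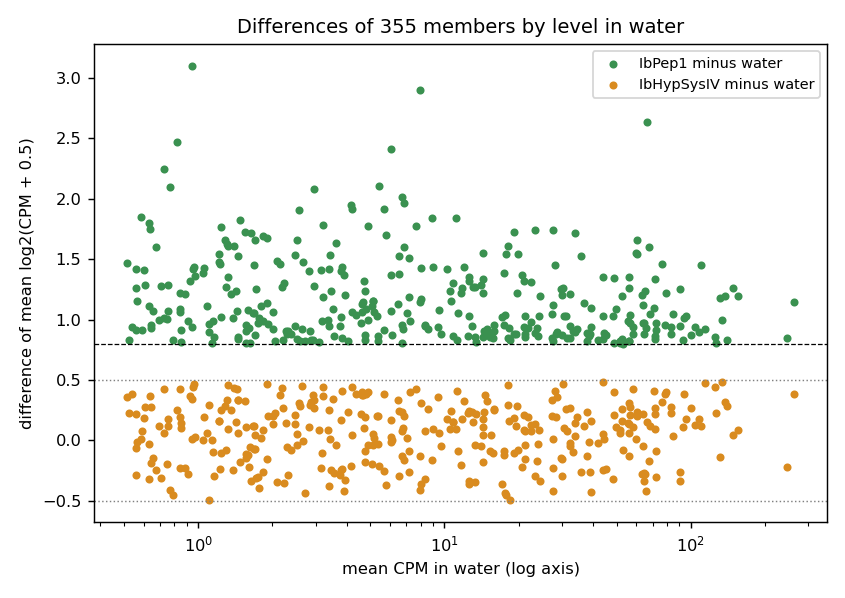
Each of the 355 genes is shown by its mean CPM in water (log axis) and by its difference from water in mean log2(CPM + 0.5), for IbPep1 in green and IbHypSysIV in orange; dashed and dotted lines mark the limits of 0.8 and 0.5 that chose the genes. Rises with IbPep1 have an interquartile range of 0.91 to 1.36, and the few above 2 are at low and middle levels in water, with 1 at 66.3 CPM.

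Together the 355 genes took 0.711%, 0.718%, 1.17% and 0.679% of the counts in water replicates 1 to 4. They took 1.09%, 0.545%, 0.848% and 1.12% in IbHypSysIV replicates 1 to 4, and 1.68%, 1.79%, 1.86% and 1.60% in the IbPep1 replicates. The means were 0.819% ± 0.234 in water, 0.901% ± 0.267 with IbHypSysIV and 1.73% ± 0.118 with IbPep1 (SD, n = 4). The rule required each IbPep1 library above all others on each gene, so the IbPep1 shares had to lie above the rest. The IbPep1 shares lay close together. Water replicate 3 lay well above the other water libraries, whose mean was 0.703% ± 0.0210 (SD, n = 3). The 10 most abundant genes held 19.5% of the reads of the 355 in IbPep1, so the share was not that of a few genes.

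On the log2(CPM + 0.5) scale of the rule, the gene with the largest rise over water was itf00g51140, whose function the files do not give. It stood at 1.05, 0.642, 1.04 and 1.05 CPM in water, at 2.46, 1.60, 0.439 and 1.38 CPM with IbHypSysIV, and at 11.03, 22.1, 9.33 and 8.45 CPM with IbPep1. These levels rest on 13 to 25 counts a library in water and on 178 to 438 with IbPep1. All IbPep1 libraries were several times above the other 8, replicate 2 highest. Water replicate 3 and IbHypSysIV replicates 1 and 4 were not raised together. The mean rose from 0.947 ± 0.203 to 12.7 ± 6.32 CPM (SD, n = 4), 13.4 times, and was 1.47 ± 0.830 CPM with IbHypSysIV (SD, n = 4). Its gap between the lowest IbPep1 library and the highest of the others, 1.60 on the log2(CPM + 0.5) scale, was the widest of the 355.

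The next on that scale was itf03g12560, again without a known function; by the ratio of mean CPM, 5.95, it ranked 6 of the 355. Its levels were 2.89, 2.67, 20.05 and 6.14 CPM in water, 7.66, 1.257, 3.15 and 8.49 CPM with IbHypSysIV and 49.3, 67.2, 33.6 and 38.6 CPM with IbPep1. Here water replicate 3 stood far above the other water libraries and nearest to IbPep1. The mean was 7.94 ± 8.23 CPM in water, 5.14 ± 3.49 with IbHypSysIV and 47.2 ± 14.8 with IbPep1 (SD, n = 4), so that the SD in water was as large as its mean. The difference of IbPep1 from IbHypSysIV, 3.31 on the log2(CPM + 0.5) scale, was the largest of the 355.

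After these, the largest differences between the peptides on the same scale were those of itf10g20600 and itf15g06200. By the ratio of mean CPM between the peptides, 12.6 and 5.02, they ranked 1 and 15. The gene itf10g20600 stood at 1.42, 0.692, 0.826 and 0.137 CPM in water, at 0.186, 0.290, 0.439 and 0.723 CPM with IbHypSysIV and at 5.68, 2.47, 9.42 and 3.04 CPM with IbPep1. It is a gene near the limit of the depth, with 3 counts in water replicate 4 and 4 in IbHypSysIV replicate 1. Neither water replicate 3 nor IbHypSysIV replicates 1 and 4 were near IbPep1. In means it went from 0.769 ± 0.528 in water and 0.409 ± 0.233 with IbHypSysIV to 5.15 ± 3.17 CPM with IbPep1 (SD, n = 4).

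The other gene, itf15g06200, was far more abundant. It stood at 32.9, 20.2, 159.7 and 52.6 CPM in water, at 54.1, 25.8, 45.3 and 134.6 CPM with IbHypSysIV and at 214.4, 410.2, 468.5 and 211.3 CPM with IbPep1. Water replicate 3 and IbHypSysIV replicate 4 stood far above the others of their groups and still below the lowest IbPep1 library. The means were 66.3 ± 63.6, 64.96 ± 47.9 and 326.1 ± 132.9 CPM (SD, n = 4) in the order water, IbHypSysIV and IbPep1.

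**Figure D2:**
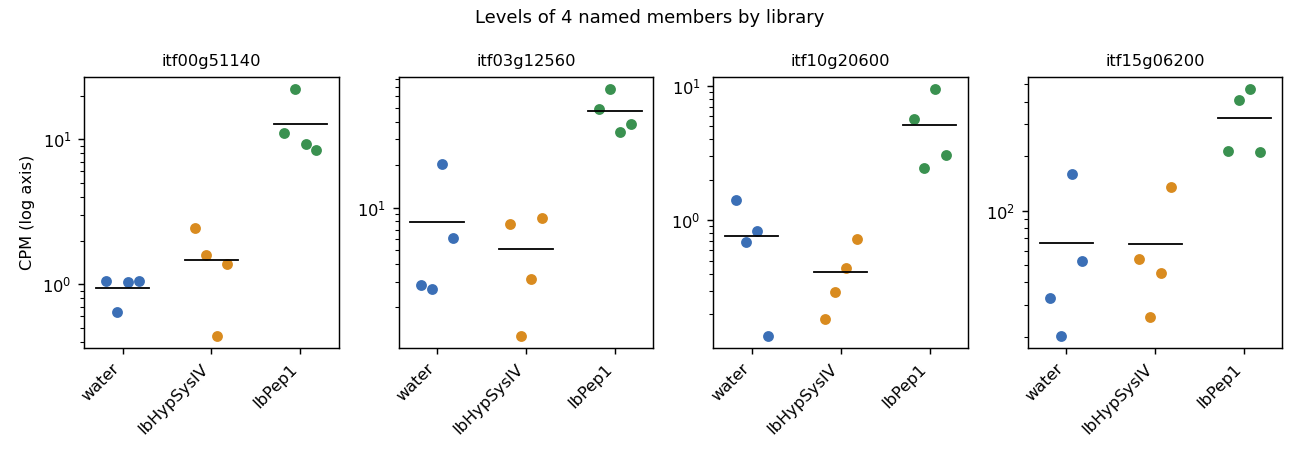
Levels in CPM (log axes, which differ between panels) of 4 genes of the group, with a point for each library in order of replicate and a line at the mean of 4. The IbPep1 points lie above all others in each panel, as the rule required. In itf03g12560 and itf15g06200 water replicate 3 lies highest of the water points, at 20.05 and 159.7 CPM.

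Among the abundant genes the rises were smaller. The most abundant of the 355 in IbPep1 stood at 271.4, 216.7, 375.4 and 189.1 CPM in water, at 440.9, 211.3, 332.0 and 394.0 CPM with IbHypSysIV and at 539.6, 589.8, 611.5 and 515.2 CPM with IbPep1. The mean with IbPep1 was 2.14 times that in water. Its IbPep1 libraries did not overlap the others. In CPM, water replicate 3 and IbHypSysIV replicates 1 and 4 came closer to the lowest IbPep1 library than to the lowest water library.

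By library, the description as genes raised with IbPep1 alone held for group means but not for each library. Relative to the mean of the 4 water libraries, the median of the 355 genes was 1.05, 1.08, 1.18 and 1.00 in IbPep1 replicates 1 to 4 on the log2(CPM + 0.5) scale. It was -0.07, -0.15, 0.50 and -0.22 in water replicates 1 to 4, and 0.42, -0.44, 0.09 and 0.36 in IbHypSysIV replicates 1 to 4. Over all 22289 genes the same medians ran from -0.11 in IbHypSysIV replicate 2 to 0.11 in IbPep1 replicate 3. The IbHypSysIV mean near water was therefore an average of 2 libraries above water, 1 near it and 1 below.

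**Figure D3:**
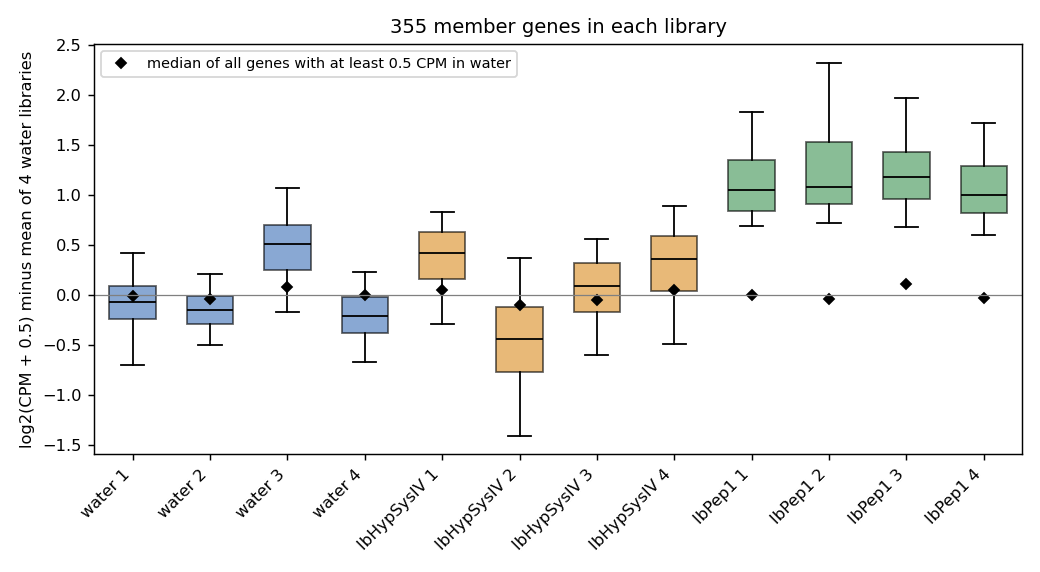
Boxes show the interquartile range of the 355 genes in each library, with the median as a line and whiskers from the 5th to the 95th percentile, as log2(CPM + 0.5) minus the gene's mean over the 4 water libraries; diamonds are medians of all genes with at least 0.5 CPM in water. The IbPep1 medians lie between 1.00 and 1.18, water replicate 3 is at 0.50, IbHypSysIV replicates 1 and 4 are at 0.42 and 0.36 and IbHypSysIV replicate 2 is at -0.44.

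Water replicate 3 was the highest water library in 277 of the 355 genes, against 36, 16 and 26 for replicates 1, 2 and 4. IbHypSysIV replicate 2 was the lowest of its group in 272. The shares over all genes for the counts of 277 and 272 are not given here. Among the 8 libraries without IbPep1, water replicate 3 was highest in 23.7% of all genes. IbHypSysIV replicates 1 and 4 were so in 11.8% and 21.0%. For the 355 genes, water replicate 3 was highest of the 8 in 135, and IbHypSysIV replicates 1 and 4 in 94 and 66. This makes 295 of 355 for these 3 libraries. The 135 and 94 are larger shares than those over all genes, but the 66 of IbHypSysIV replicate 4 are a smaller share than its 21.0%. Gaps were often narrow: the lowest IbPep1 library exceeded the highest other library by a median of 0.19 on the log2(CPM + 0.5) scale, by less than 0.1 in 99 genes and by more than 1 in 5. The part of these 3 libraries in the gaps was not tested.

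The position of a library between the other 3 water libraries (0) and the IbPep1 mean (1) puts these values on a common scale. Its median over the 355 genes was 0.550 for water replicate 3, 0.457 for IbHypSysIV replicate 1 and 0.408 for IbHypSysIV replicate 4, against 0.184 and -0.232 for IbHypSysIV replicates 3 and 2. The rule keeps all of these below the IbPep1 libraries, so positions near 1 were not possible for genes of the group. Water replicate 3 lay past 0.5 in 204 genes and past 0.75 in 51, and at or below the other water libraries in 43.

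These libraries were high in partly the same genes. Sets of 204, 139 and 158 out of 355 genes share many genes by their size alone, and that part is not taken off here. Water replicate 3 and IbHypSysIV replicate 4 were both past 0.5 in 113 genes, which are 55.4% of the 204 for the first and 81.3% of the 139 for the second. Water replicate 3 and IbHypSysIV replicate 1 were so in 118 genes, 57.8% of the 204 and 74.7% of the 158 for replicate 1. All 3 libraries were past 0.5 in 74 genes. Positions of all 3 share the same water and IbPep1 libraries as end points, so part of this overlap follows from the scale.

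Genes in which water replicate 3 was high are set here beside those in which it was not, without a test. In the 204 genes with water replicate 3 past 0.5, IbHypSysIV replicates 1 and 4 had median positions of 0.541 and 0.536, and the median water level was 12.8 CPM. In the 43 genes with water replicate 3 at or below the other water libraries, those medians were -0.00191 and -0.162, and the water level was 1.62 CPM. The median rise with IbPep1 over all 4 water libraries was about the same in both, 1.06 and 1.09 on the log2(CPM + 0.5) scale. That reference includes water replicate 3, whose level formed both sets. The likeness therefore cannot be read as an equal rise over the other water libraries. In 36 genes none of the 3 libraries lay past 0.25, and in 8 all of them were within 0.25 of the other water libraries either way. The description as raised with IbPep1 alone thus extended to these 3 libraries in 36 genes, a number taken after the values were seen.

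**Figure D4:**
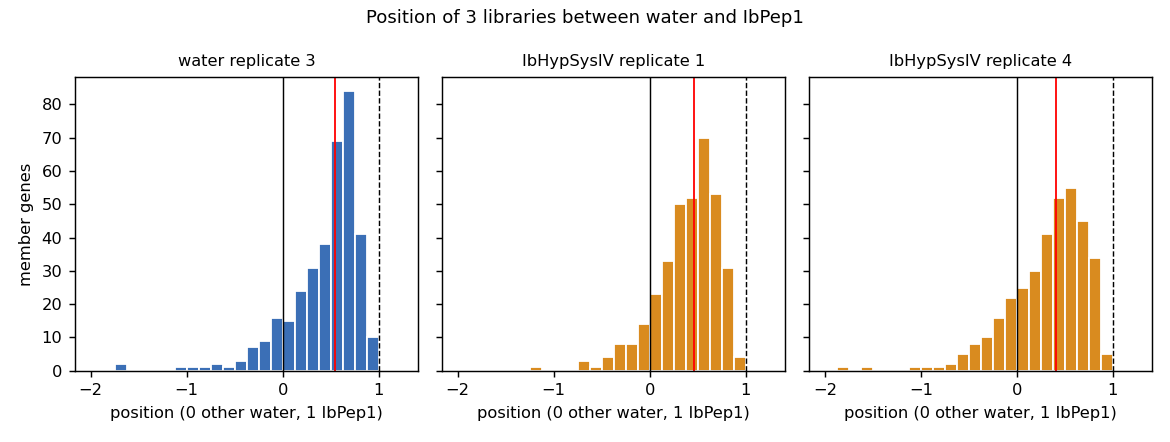
Number of the 355 genes by the position of water replicate 3, IbHypSysIV replicate 1 and IbHypSysIV replicate 4 between the mean of water replicates 1, 2 and 4 (0, solid line) and the mean of IbPep1 (1, dashed line), with the median in red. The medians are 0.550, 0.457 and 0.408, and the columns left of 0 are genes in which the library lay below the other water libraries.

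Spread between replicates was given by the SD within each group. The median SD of log2(CPM + 0.5) over the 355 genes was 0.41 in water, 0.48 with IbHypSysIV and 0.21 with IbPep1 (n = 4 each), against 0.26, 0.28 and 0.24 over all 22289 genes. Without water replicate 3 the water value was 0.23, against 0.17 over all genes (n = 3). The small spread in IbPep1 is partly set by the rule, which bars low IbPep1 libraries. Within IbPep1, replicate 3 was highest in 164 genes and replicate 4 lowest in 142. Over all 22289 genes replicate 3 also had the highest median of the IbPep1 libraries, 0.11 above the water mean on the same scale. The shares over all genes for the counts of 164 and 142 are not given here. In 13 genes replicate 2, and in 4 genes replicate 3, was at least 1 above the mean of the other 3 on the log2 scale; replicates 1 and 4 were so in 0.

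The rule was also applied without 1 library, which was then read on the genes chosen. Genes chosen without IbPep1 replicate 1, 2, 3 or 4 numbered 405, 394, 417 and 549, and the library left out stood at a median of 0.96, 1.01, 1.04 and 0.82 above water on the log2(CPM + 0.5) scale. Over all genes the same libraries stood at -0.0069, -0.038, 0.11 and -0.034. The library left out was above each water and IbHypSysIV library in 88.6%, 89.1%, 78.9% and 67.8% of the genes chosen without it, beside 15.0%, 15.6%, 25.5% and 12.9% of all genes. Each IbPep1 library thus stood high on genes chosen on the other 3, replicate 4 least. The water libraries that served in the choice are also the reference of these levels. The shares are taken against the water and IbHypSysIV libraries, which the genes were chosen to have below IbPep1. Neither is therefore independent of the rule, and how far the choice raised these values was not tested.

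The same reading set water replicate 3 apart from its group. Genes chosen without it numbered 622, and 280 of them were among the 355. On the 622 genes water replicate 3 stood 0.78 above the other water libraries, at a median position of 0.713, beside 0.088 over all genes. It was above each of the other water and IbHypSysIV libraries in 66.1% of them, beside 23.7% of all genes; over all genes the same share was 7.36%, 9.55% and 9.995% for water replicates 1, 2 and 4. Water replicates 1, 2 and 4, each read on the 346, 337 and 333 genes chosen without it, stood at -0.03, -0.19 and -0.24.

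Among the IbHypSysIV libraries, replicates 1 and 4 stood 0.51 and 0.45 above water on the 396 and 402 genes chosen without them. Replicates 2 and 3 stood at -0.46 and 0.099 on 306 and 378 genes. IbHypSysIV replicates 1 and 4 were above each other library without IbPep1 in 37.9% and 30.8% of these genes, beside 11.8% and 21.0% of all genes. When water replicate 3 and IbHypSysIV replicates 1 and 4 were all left out, the rule chose 919 genes, which held 280 of the 355, or 78.9% of them and 30.5% of the 919. The part of a batch, of handling or of leaf state in the levels of these 3 libraries was not tested.

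**Figure D5:**
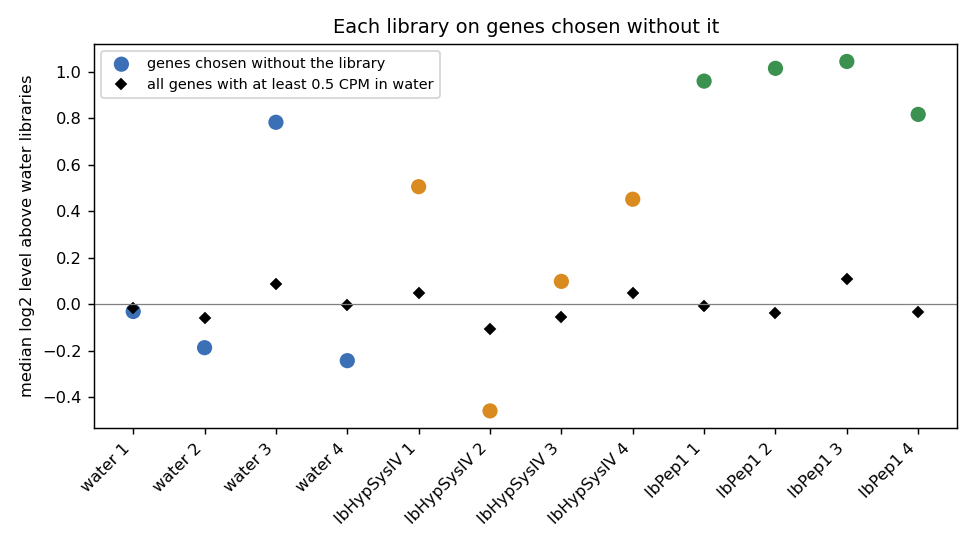
For each library, the median log2(CPM + 0.5) above the water libraries (those left in, for a water library) over genes chosen by the rule without that library (circles, blue for water, orange for IbHypSysIV, green for IbPep1) and over all genes with at least 0.5 CPM in water (diamonds). The IbPep1 circles lie between 0.82 and 1.04, that of water replicate 3 is at 0.78, and the other water circles lie at or below -0.03.

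In the fit across the whole table, which used the same libraries as the choice, edgeR's quasi-likelihood test called 291 of the 355 genes higher with IbPep1 than with water at an adjusted p under 0.05, beside 5.51% of the 23193 genes tested. The rule used this contrast, and nothing is read from the count. All 355 had fitted log2 fold changes above 0, from 0.74 to 3.73 with a median of 1.13 and a median SE of 0.29, beside a median of 0.0016 over all genes tested. Single libraries moved the count: leaving out water replicate 1, 2 or 4 gave 130, 92 or 88 calls, and leaving out IbPep1 replicate 1 or 2 gave 158 or 115. There were 344 without water replicate 3, and 349 in the 9 libraries left without water replicate 3 and IbHypSysIV replicates 1 and 4. The share of all genes called in these refits is not given here, so a fall cannot be set against the whole table.

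Between the peptides, the same test called 239 of the 355 higher with IbPep1 than with IbHypSysIV, beside 6.70% of all genes tested, again on libraries that the rule used. The fitted log2 differences ran from 0.34 to 3.597 with a median of 1.04. Leaving out IbHypSysIV replicate 2 or 3 gave 146 or 138 calls, leaving out IbPep1 replicate 1 or 2 gave 158 or 124, and the 9 libraries gave 311. A replicate block on the numbers in the titles, which were not taken as a pairing, gave 45. For these refits too, the share of all genes called is not given here. The 116 genes not called in the main fit are not shown to respond alike to both peptides.

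For IbHypSysIV against water edgeR called 0 of the 355 in either direction, beside 1.22% of genes tested that were called higher and 1.10% called lower. The rule had already required means within 0.5. Of the 355, 15 had an unadjusted p under 0.05 in edgeR, and DESeq2 called 1. Without water replicate 3 edgeR called 3, with a median log2 difference of 0.30 in place of 0.13. Without IbHypSysIV replicate 2 it called 2, with a median of 0.25. The shares over all genes for these counts are not given here, and nothing is read from them. Both comparisons against water share the same water libraries.

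The identifiers gave a feature that the rule did not use. All 16 prefixes of the identifiers, itf00 to itf15, were represented, by 12 to 31 genes each. The share chosen of the genes with at least 0.5 CPM in water was 0.947% for itf15, 0.983% for itf12 and 1.03% for itf03, and it was highest for itf00 at 2.93%, with 22 of 752 genes. The next highest was itf13 at 2.21%. What the prefix itf00 stands for is not given in the sources used here.

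Some of the genes had neighbouring identifiers. When the table is ordered by identifier, 28 of the 355 stood in 13 runs of adjacent rows, 2 of these with 3 genes, and itf10g20600 was in such a pair. Of 522 adjacent rows with at least 0.5 CPM in water, counted once for each gene they adjoin, 5.75% were themselves in the group, beside 1.59% of all genes at that level. The 492 adjacent rows outside the group had a median rise with IbPep1 of 0.11 on the log2(CPM + 0.5) scale, and 9.55% of them had a rise of 0.8 or more, beside 5.88% of all genes. Genes with adjacent identifiers can be near-identical copies or overlap, and the part of shared reads in this was not tested.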

How the data were processed

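Messenger RNA of 12 leaf libraries was measured by sequencing. The authors deposited raw read counts per gene identifier, as whole numbers, in 1 column for each library. The submitters' processing notes list HTSeq 0.6.1, HISAT2 2.0.5 and DESeq2 1.22.2 without a role. Which genome build and annotation were used is not given in the sources used here. The labels' protocols name both a NEBNext Ultra and a SMARTER kit, and nothing says whether strand was kept, so antisense and overlapping genes cannot be told apart.

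CPM was computed on column totals, with a pseudocount of 0.5 for log2 values, which understates changes of low genes. The whole table was fitted in R 4.3.3 with edgeR 4.0.16 (filterByExpr, TMM, 3 groups in 1 quasi-likelihood model, Benjamini-Hochberg adjustment over 23193 genes), and the filter kept all 355 members. The fit was tested on simulated data. DESeq2 1.42.0, other scalings and filters, a replicate block and leaving out libraries were alternatives. The members and lists were chosen with earlier results of these data known. Identifiers are printed for the 2 members highest over water and the 2 others highest over IbHypSysIV, with a mean of at least 1 CPM in IbPep1. Where replicates are not stated to be separate plants, p-values cover only the spread between samples, and this may be technical.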

Additional observations from a re-analysis of the deposited data

Results flagged for a closer look

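Values far from the rest of their group of 4 were sought in 21 groups, and 2 were found; such a limit flags about 1 in 20 groups by chance. The share of counts held by the 355 genes was 1.17% in water replicate 3, away from the other 3 water libraries, which lay between 0.679% and 0.718%. The level of itf00g51140 was 0.642 CPM in water replicate 2, or 13 counts, below 1.04 to 1.05 CPM in the other 3.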

How the results depend on the processing

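The number of genes chosen was 314 to 415 under other pseudocounts, TMM scaling and other minimum levels, and 306 to 622 when 1 library was left out; the highest values were 622 without water replicate 3 and 549 without IbPep1 replicate 4. It was 919 in the 9 libraries left without water replicate 3 and IbHypSysIV replicates 1 and 4, an alternative added after seeing the data. Genes called for IbPep1 against water numbered 88 to 344 with 1 library left out, those for IbPep1 against IbHypSysIV 124 to 298, and those for IbHypSysIV against water 0 to 3, with 1 by DESeq2. The share of all genes called in each setting is not given beside these counts, and the cause of these shifts was not tested. DESeq2, upper-quartile scaling, no filter and fits of 8 libraries kept the counts of both IbPep1 comparisons within 1.5 times. The replicate block on the title numbers, which leaves 3 residual degrees of freedom where the other fit has 9, called 45 genes for IbPep1 against IbHypSysIV, 289 for IbPep1 against water and 0 for IbHypSysIV against water. Libraries of different groups with the same title number had correlated deviations of -0.102 to 0.154 in 7 pairs, and 2 of 6 water and IbPep1 libraries correlated best with their own number, so the numbers were not taken as a pairing. Of 24 recomputed levels of a library on genes chosen without it, 23 moved by less than the spread of their group, and that of IbPep1 replicate 3 went from 1.04 to 0.91 with TMM scaling. The fitted log2 fold changes of the 4 named genes stayed above 0 in all 144 alternatives, from 1.998 to 4.70, while 18 calls were lost. Depth limits the 38 genes with under 10 counts in a library.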
